A study of Mus musculus with 54 samples.

Results

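Bmpr2 and 8 further genes of the bone morphogenetic protein (BMP) pathway were described across mouse ovary and testis, in animals exposed to pharmaceuticals through drinking water and in their offspring. The 9 genes, of 26264 in the count tables, were the receptors Bmpr2, Bmpr1a, Bmpr1b and Acvr1, the signal transducers Smad1 and Smad5, and the target genes Id1, Id2 and Id3. All 9 passed the filter on low counts in every fit. They were chosen by the measured fall of Bmpr2 at the higher dose in F1 ovary, which was already known, so their values in F1 ovary are given as a description, without a test. The rule itself used no value of testis or of the F2 generation, although earlier results of all these libraries were known when the genes were chosen.

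BMP ligands bind a complex of type I receptors (Bmpr1a, Bmpr1b, Acvr1) and type II receptors (Bmpr2 among them). The type II receptor phosphorylates the type I receptor, which phosphorylates Smad1 and Smad5. These enter the nucleus with their common partner and switch on genes such as Id1, Id2 and Id3, which encode inhibitors of basic helix-loop-helix transcription factors. In the ovary, oocyte factors such as BMP15 act on granulosa cells through Bmpr2 and Bmpr1b, and female mice without Bmpr1b are infertile. In the testis, BMP signals act on germ cells and on the Sertoli cells around them.

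The cocktail held ibuprofen and diclofenac, which are anti-inflammatory drugs that inhibit cyclooxygenases, the ibuprofen metabolite 2-hydroxyibuprofen, and the synthetic oestrogen ethinyl-estradiol. Pregnant mice drank it from 8.5 days post coitum, and their F1 young drank it until they were killed. Ibuprofen was at 11.3 ng/L in dose 1 and 113 ng/L in dose 2, 2-hydroxyibuprofen at 90 and 225 ng/L, diclofenac at 22.5 and 112 ng/L, and ethinyl-estradiol at 2.25 and 45 ng/L. Control water held 0.001% ethanol. Ovaries were collected 30 days and testes 35 days post partum. F2 animals came from 6 parental crosses, for which the labels give the parents' groups and no dose of the F2 animals' own. Both parents were controls in the control cross, only the mother was exposed in the maternal crosses (dose 1 or dose 2), only the father in the paternal crosses (dose 1 or dose 2), and both parents in the biparental dose 2 cross. The mouse strain is not given in the sources used here. RNA was made into libraries with a stranded mRNA kit, and there were 3 libraries (A, B and C) of each of 18 groups, 54 libraries in all. The labels do not say whether the libraries of a group came from separate animals or litters, so p-values measure only the spread between these libraries.

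The promoters of 4 of the genes are shown, from the 2 sets that the text below follows. These sets are Bmpr2 with Bmpr1a and Bmpr1b, and the Id genes. Bmpr1b, with 3 windows, is not printed, and Id1 had no window in the source used. Each is the 250 bases before a RefSeq transcription start in build GRCm38.p6, read 5′ to 3′ on the strand of the gene. Capitals mark GGCGCC, a GC-rich element bound by Smad1 and Smad5. The Bmpr2 window is chr1:59764029-59764278 on the plus strand, and the Bmpr1a window is chr14:34502547-34502796 on the minus strand. The Id2 window is chr12:25096093-25096342 on the minus strand, and the Id3 window is chr4:136143572-136143821 on the plus strand.
Bmpr2: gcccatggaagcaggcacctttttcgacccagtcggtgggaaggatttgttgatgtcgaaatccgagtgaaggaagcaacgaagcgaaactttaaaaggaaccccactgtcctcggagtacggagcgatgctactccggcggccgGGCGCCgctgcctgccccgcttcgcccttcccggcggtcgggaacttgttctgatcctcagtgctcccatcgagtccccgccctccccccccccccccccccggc
Bmpr1a: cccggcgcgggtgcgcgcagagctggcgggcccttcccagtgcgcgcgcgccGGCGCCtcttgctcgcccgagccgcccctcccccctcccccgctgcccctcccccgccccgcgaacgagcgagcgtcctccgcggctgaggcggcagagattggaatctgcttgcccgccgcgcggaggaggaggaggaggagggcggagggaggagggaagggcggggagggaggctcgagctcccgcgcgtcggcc
Id2: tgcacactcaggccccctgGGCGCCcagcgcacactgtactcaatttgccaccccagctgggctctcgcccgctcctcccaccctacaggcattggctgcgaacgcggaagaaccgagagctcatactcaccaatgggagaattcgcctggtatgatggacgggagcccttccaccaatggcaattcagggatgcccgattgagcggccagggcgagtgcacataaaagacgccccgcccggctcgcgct
Id3: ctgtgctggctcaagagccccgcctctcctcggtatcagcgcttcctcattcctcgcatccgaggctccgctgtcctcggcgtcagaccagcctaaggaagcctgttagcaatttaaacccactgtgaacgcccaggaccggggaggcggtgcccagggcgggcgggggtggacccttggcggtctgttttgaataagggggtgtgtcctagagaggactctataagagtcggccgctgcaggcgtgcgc
The Bmpr2, Bmpr1a and Id2 windows each held GGCGCC once, and the Id3 window held none. Of the members not shown, Bmpr1b (3 windows), Acvr1 and Smad1 had none, and Smad5 had it in 1 of 3 windows. The element is its own reverse complement. It occurred in 9.59% of all 32851 promoter windows of this length, which were not matched for GC content. The shorter Smad box GTCT, searched on both strands, occurred in 82.9% of them. Of the windows shown, those of Bmpr2 and Bmpr1a held no GTCT, that of Id2 held 1 and that of Id3 held 2. A match is a description of the letters and not evidence of binding.

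Levels are CPM (counts divided by the library total and put on a per-million scale), scaled within a tissue and generation by the trimmed mean of M values (TMM). Total counts per library were 36640553 to 57383270 in F1 ovary, 37912606 to 84721392 in F2 ovary, 31816283 to 122396602 in F1 testis and 31553824 to 48237343 in F2 testis. The tissue labels matched their defining markers in the F2 control cross. Foxl2 (granulosa cells) was at 267 to 378 CPM in ovary and at 0 to 0.0930 CPM in testis, and Prm1 (elongating spermatids) was at 0.115 to 0.200 CPM in ovary and at 1725 to 1883 CPM in testis. A few libraries stood apart. In F1 ovary control A the 6 elongating spermatid markers summed to 1268 CPM, against 10.8 to 89.2 CPM in the other 8 F1 ovary libraries and at most 0.670 CPM in F2 ovary. Its median correlation with the rest of its set was 0.923 against a set median of 0.985. In F2 ovary, maternal dose 1 C had the lowest such value (0.965), and in F1 testis the lowest was dose 2 C (0.966). In bulk tissue, fewer cells of a type and less RNA per cell cannot be told apart.

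In F1 ovary, Bmpr2 stepped down from control to dose 1 to dose 2. The control libraries A, B and C had 638, 612 and 608 CPM, the dose 1 libraries 557, 554 and 571 CPM, and the dose 2 libraries 441, 423 and 448 CPM. No value of a dose overlapped with the group above it. The group means were 619 ± 16.7, 561 ± 9.01 and 438 ± 12.97 CPM (SD, n = 3), so dose 2 lay 29.3% below control. On the log2 scale the difference was -0.50 (SE 0.0564) for dose 2 against control, -0.14 (SE 0.0562) for dose 1 against control and -0.36 (SE 0.0563) for dose 2 against dose 1. Both differences from control share the control libraries, and both that involve dose 2 share the dose 2 libraries. Without control A, the library with the spermatid transcripts, the difference was -0.48 (SE 0.0717).

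**Figure D1:**
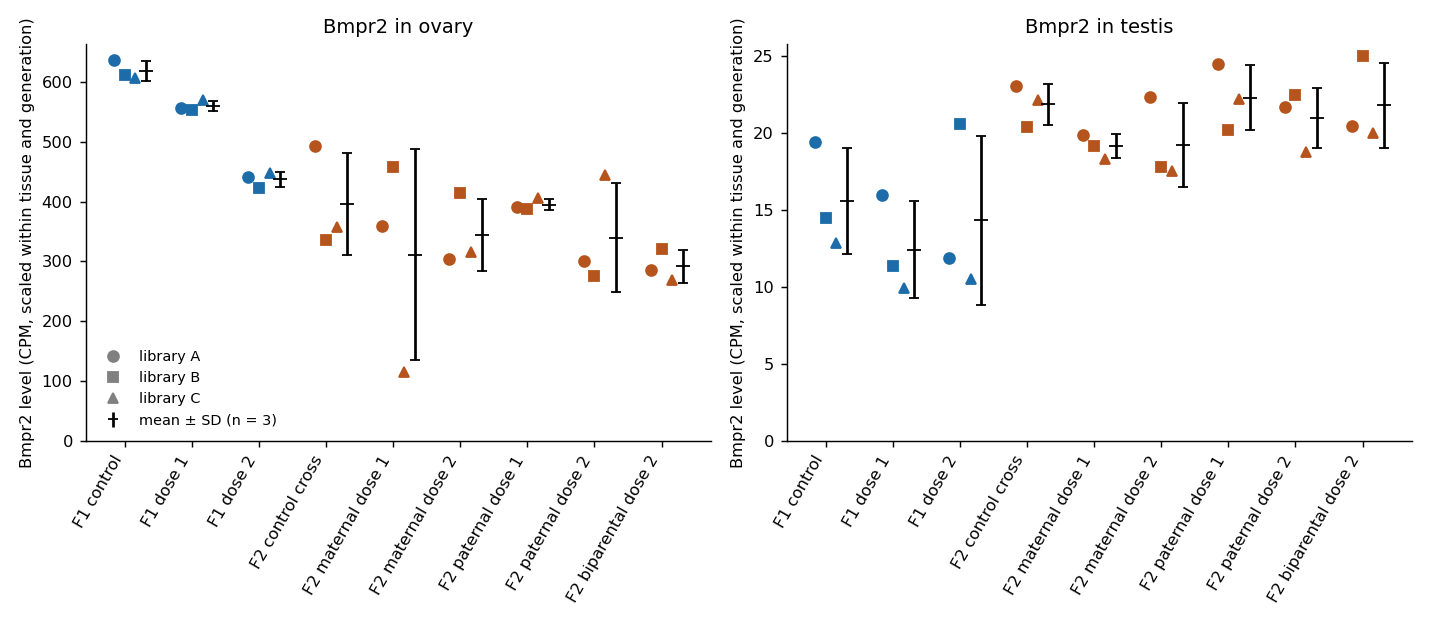
Bmpr2 level in CPM (y axes from 0, scaled within tissue and generation) in each library of the 9 ovary groups (left) and the 9 testis groups (right), with group mean ± SD (n = 3). F1 ovary groups step down from 619 to 438 CPM without overlap, F2 ovary maternal dose 1 C sits alone at 116 CPM, and every testis library lies between 9.93 and 24.98 CPM.

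This comparison chose the genes, so the following counts are read as a description only. Of the 9 genes, 2 were lower in every dose 2 library than in every control library (Bmpr2 and Bmpr1b), which was true of 3.79% of the 17896 genes tested. Bmpr2 alone was lower in every dose 1 library than in every control library (5.5% of genes) and in every dose 2 library than in every dose 1 library (7.46%). Over all genes, edgeR called 0% in each of the 3 F1 ovary comparisons. DESeq2 called 8 genes for dose 2 against control (0.0447%) and 57 for dose 2 against dose 1 (0.319%). No call of a member is read from these libraries.

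Bmpr1b, the type I receptor that partners Bmpr2 in granulosa cells, had 187, 168 and 183 CPM in control libraries A, B and C. It had 173, 160 and 173 CPM at dose 1 and 160, 139 and 121 CPM at dose 2. The dose 2 values lay below all control values, although dose 2 A and dose 1 B were equal to within 1 CPM, and the log2 difference from control was -0.36 (SE 0.1). The other type I receptors showed no such step. Bmpr1a had 155, 176 and 148 CPM in control and 155, 156 and 156 CPM at dose 2, a log2 difference of -0.03 (SE 0.0781). Acvr1, which pairs with Bmpr2 and with activin type II receptors, had 35.2, 40.8 and 61.9 CPM in control and 59.8, 37.2 and 36.2 CPM at dose 2. Its libraries differed more within groups than the group means did between them.

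The transducers and the target genes also overlapped between dose 2 and control. Smad1 kept a narrow range, 33.8 to 38.9 CPM over all 9 libraries, and Smad5 ranged from 155 to 186 CPM. Their log2 differences at dose 2 were -0.00331 (SE 0.0653) and -0.02 (SE 0.0819). Id1 had 24.9, 26.4 and 37.7 CPM in control and 42.3, 31.1 and 32.5 CPM at dose 2, a log2 difference of 0.25 (SE 0.22). Id2 had 82.8, 82.3 and 92.2 CPM in control and 109, 99.5 and 89.7 CPM at dose 2, a difference of 0.21 (SE 0.107). Id3 had 124, 122 and 189 CPM in control and 180, 136 and 135 CPM at dose 2, a difference of 0.05 (SE 0.199). The median log2 difference of the 9 genes was -0.0193, beside -0.0173 over all genes tested.

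**Figure D2:**
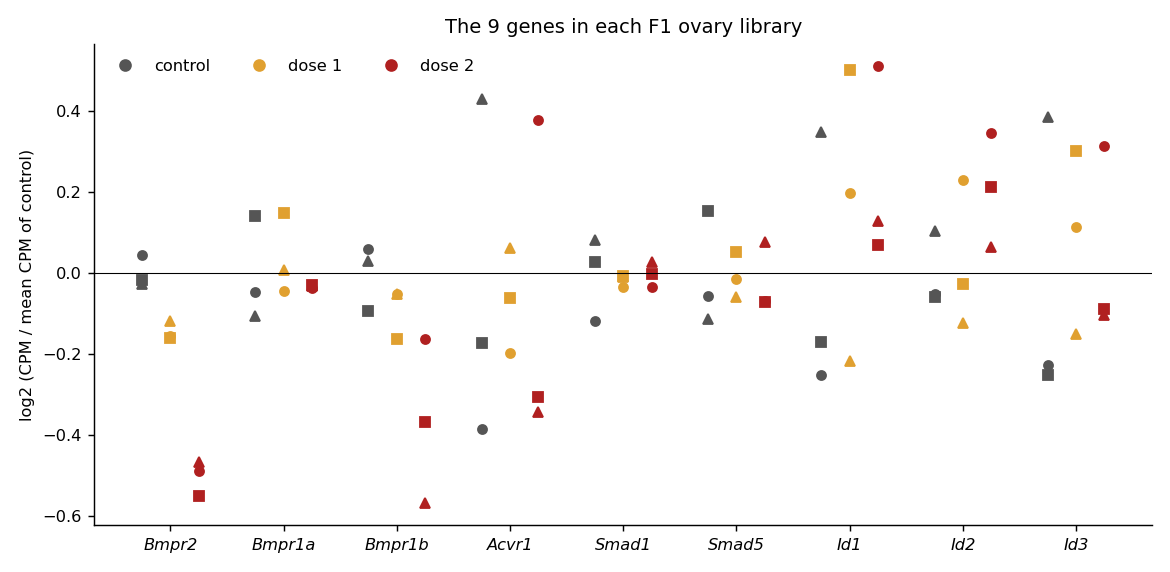
Level of each of the 9 genes in each F1 ovary library, as log2 of its CPM over the mean CPM of the 3 control libraries (circles, library A; squares, B; triangles, C). Bmpr2 at dose 2 lies near -0.5 in all 3 libraries with little spread, Bmpr1b at dose 2 spreads below 0, Acvr1 and Id3 scatter on both sides of 0 at dose 2, and the dose 2 points of Id1 and Id2 lie above 0 with overlap with control.

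Other quantities of the F1 ovaries are given beside the step of Bmpr2. The summed granulosa cell markers, all 8 detected, were at 5773 to 7142 CPM in control, 6119 to 7781 CPM at dose 1 and 4975 to 6863 CPM at dose 2. The 6 stroma markers summed to 3129 to 4084 CPM in control, 3080 to 4279 CPM at dose 1 and 3723 to 4869 CPM at dose 2. The 8 endothelial markers summed to 432 to 462 CPM in control, 492 to 524 CPM at dose 1 and 480 to 495 CPM at dose 2, so both doses lay above control and dose 2 did not lie above dose 1. Oocyte markers summed to 702 to 736 CPM in control, 510 to 604 CPM at dose 1 and 624 to 786 CPM at dose 2. Theca and steroidogenic cell markers were at 4927 to 6795.5, 6581.9 to 7660.5 and 4104.1 to 8027.5 CPM in the same order. Oocyte markers at dose 1 thus lay wholly below control, while dose 2 overlapped with control in both lists. The part of these lists in the step of Bmpr2 was not tested. Bmpr2 has long exons (18 kb in all), and the 1727 tested genes with the longest exons (9.42 kb or more) had a median log2 difference of -0.0536 at dose 2, beside -0.058 for the 1727 with the shortest exons. Of the 59 other genes fixed as the BMP pathway lists (ligands, further receptors, SMADs and regulators, antagonists, targets), 53 were tested. Their median log2 difference at dose 2 was -0.018, and edgeR called 0 of them in F1 ovary. Fst, the secreted follistatin that binds activins and BMPs, averaged 322 CPM at dose 2 and 440 CPM in control, and Acvr2a, another type II receptor, averaged 25.7 and 31.6 CPM. Tgfbr2, the TGF-beta type II receptor, averaged 131 and 112 CPM, and Chrd, the BMP antagonist chordin, 5.59 and 3.96 CPM. These pathway genes were singled out after their values were seen.

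In F1 testis, none of the 9 genes passed the test at either dose. The question is the same as in ovary, whether the cocktail moved the pathway in the exposed generation, and here the genes were tested with edgeR's quasi-likelihood test, adjusted over 19025 genes. The count called was 0 of 9 for dose 1 against control, dose 2 against control and dose 2 against dose 1, where 0.021%, 0.00526% and 0.0263% of all genes were called. At an unadjusted p under 0.05 the count was 0 of 9 in each, and DESeq2 also called 0. No member had groups without overlap.

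Bmpr2 was far lower in testis than in ovary. It had 19.4, 14.4 and 12.8 CPM in control testes A, B and C, 15.98, 11.4 and 9.93 CPM at dose 1, and 11.9, 20.6 and 10.5 CPM at dose 2. The 3 groups overlapped, and the log2 differences from control were -0.33 (SE 0.293) at dose 1 and -0.12 (SE 0.292) at dose 2. With these standard errors, a difference of the size described in F1 ovary would not have been detectable here. The longest genes moved within these groups too: the median deviation of the 1825 genes with the longest exons from the set mean was 0.168, 0.11 and -0.0821 in control libraries A, B and C and -0.0497, 0.265 and -0.338 at dose 2, on the log2 scale. The part of gene length in the spread of Bmpr2 was not tested.

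The Id genes in F1 testis were set apart by a single library, dose 2 C. Id2 had 20.1 CPM there and 6.38 to 7.93 CPM in the other 8 libraries. Id3 had 7.43 CPM against 2.43 to 3.75 CPM, and Id1 had 3.39 CPM against 1.39 to 2.45 CPM. With dose 2 C the log2 differences of dose 2 from control were 0.71 for Id2, 0.48 for Id3 and 0.18 for Id1, and without it they were -0.03, -0.21 and -0.21. In the same library the 5 adipocyte markers summed to 71.9 CPM, against 19.3 to 37.6 CPM in the other 8, and the TMM factor was 0.843. Their part in the Id values was not tested.

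In F2 ovary, Bmpr2 varied as much between libraries of a group as between groups. The control cross had 494, 336 and 358 CPM in libraries A, B and C, maternal dose 1 had 360, 459 and 116 CPM, and maternal dose 2 had 304, 415 and 315 CPM. Paternal dose 1 had 391, 388 and 406 CPM, paternal dose 2 had 300.4, 275 and 444 CPM, and biparental dose 2 had 286, 321 and 268 CPM. Only the biparental cross lay wholly below the control cross, and only paternal dose 1 had libraries within 20 CPM of each other. By group mean the order was control cross (396 ± 85.6 CPM), paternal dose 1 (395 ± 9.33), maternal dose 2 (345 ± 60.96), paternal dose 2 (340 ± 91.1), maternal dose 1 (311 ± 177) and biparental dose 2 (292 ± 26.9; SD, n = 3 each). No neighbours in that order except paternal dose 1 and maternal dose 2 were farther apart than 0.162 times the larger of their SDs, and that pair was 0.827 SDs apart.

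Each cross with an exposed parent was tested against the control cross with edgeR, and 0 of 9 genes were called in each of the 5 comparisons. The share of all 17400 genes called was 0% for maternal dose 1, maternal dose 2, paternal dose 2 and biparental dose 2, and 0.00575% for paternal dose 1. The direct comparisons of maternal with paternal crosses also called 0 of 9, beside 0.00575% of all genes for dose 1 and 0% for dose 2. DESeq2 called 0 of 9 in all 7 comparisons. At an unadjusted p under 0.05 there was 1 member, Acvr1, in biparental dose 2 against control cross (9% of all genes were under that limit) and in maternal against paternal dose 1 (12.6%).

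The biparental dose 2 cross had the most members lying to one side. Of the 9 genes, 5 were lower in all 3 libraries than in all 3 control cross libraries, a separation in this direction that 7.6% of genes showed. These were the 4 receptors and Smad5. Bmpr2 differed by -0.44 (SE 0.33), Bmpr1a by -0.37 (SE 0.237), Bmpr1b by -0.45 (SE 0.224), Acvr1 by -0.38 (SE 0.125) and Smad5 by -0.18 (SE 0.106), all on the log2 scale. The lowest adjusted p among them was 0.48 by edgeR, for Acvr1, so none passed. With the spread estimated without maternal dose 1 C, the SE of Bmpr2 was 0.182, that of Bmpr1a 0.123 and that of Bmpr1b 0.172, the lowest adjusted p was 0.269, and again none passed. The median of the 9 was -0.178, against 0.0304 over all genes. Gene length moved with this contrast: the 1682 genes with the longest exons had a median log2 difference of -0.144 and the 1682 with the shortest exons 0.205. The part of exon length in the lower receptor values was not tested.

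Among the dose and cross comparisons outside F1 ovary, Acvr1 gave the lowest unadjusted p-values of the 9 genes. It had 41.8, 36.5 and 40.4 CPM in the control cross and 32.5, 30.0 and 28.9 CPM in the biparental cross. In maternal dose 1 it had 47.7, 41.3 and 44.5 CPM, and in paternal dose 1 it had 34.8, 33.1 and 33.5 CPM. All 3 maternal dose 1 libraries lay above all 3 paternal dose 1 libraries, and the log2 difference was 0.40 (SE 0.125, adjusted p = 0.374). In that comparison 4 of 9 members had groups without overlap (14.3% of all genes did), with Acvr1, Smad1 and Id3 higher and Bmpr1b lower in the maternal cross. Without maternal dose 1 C the Acvr1 difference was 0.41, the Bmpr1b difference went from -0.45 to -0.19 and the Id3 difference from 0.39 to 0.27, and no member was called. In maternal dose 1 against control cross only Smad1 was without overlap (9.29% of genes), and in paternal dose 1 against control cross only Acvr1 (13.3%).

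**Figure D3:**
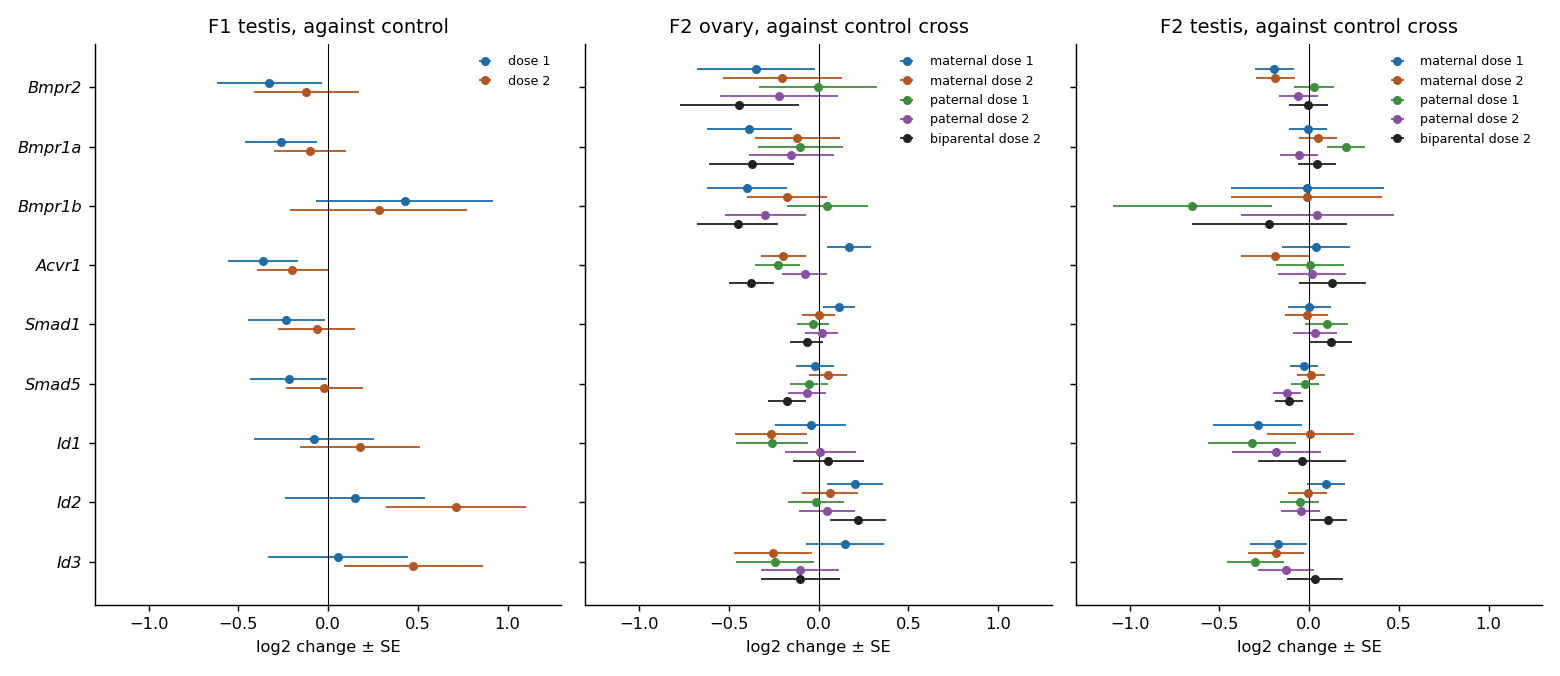
Log2 change ± SE of each of the 9 genes in each dose or cross against its own control group, for F1 testis (left), F2 ovary (middle) and F2 testis (right). The receptors in the biparental cross of F2 ovary lie from -0.45 to -0.37, the bars of Bmpr2 are wider in F2 ovary (SE 0.33) than in F2 testis (SE 0.109), and no point passed the test.

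The library maternal dose 1 C held the lowest ovary values of Bmpr2, Bmpr1a and Bmpr1b. Bmpr2 was at 116 CPM there, Bmpr1a at 52.2 CPM and Bmpr1b at 72.6 CPM, while the next lowest F2 ovary values were 268, 93.1 and 97.5 CPM. Acvr1 (44.5 CPM), Smad1 (39.1 CPM) and the Id genes of the same library (Id1 49.6, Id2 92.5 and Id3 238 CPM) were in the upper part of their F2 ovary ranges. Without this library Bmpr2 in maternal dose 1 differed from the control cross by 0.05 (SE 0.202) on the log2 scale, in place of -0.35 (SE 0.33) with it.

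Across the 18 F2 ovary libraries the levels of Bmpr2 and the type I receptors Bmpr1a and Bmpr1b followed each other. Correlations were computed on log2 CPM for 11 pairs in each tissue, with permutation p-values (100000 resamples, two-sided) adjusted over all 22. Bmpr2 and Bmpr1a had Pearson's r = 0.957 (p = 1e-05, the smallest the permutations can give, adjusted p = 0.00011) and Spearman's rho = 0.905. Bmpr2 and Bmpr1b had r = 0.919 (p = 1e-05, adjusted p = 0.00011) and rho = 0.934. Leaving out the 2 libraries farthest from the median of Bmpr2, maternal dose 1 C and control cross A, gave r = 0.827 and r = 0.888. Bmpr2 and Smad5 had r = 0.712 (adjusted p = 0.00257), rho = 0.763, and r = 0.699 without the 2 libraries.

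The Id genes formed a second set. Id1 and Id3 had r = 0.802 (adjusted p = 0.000733, rho = 0.717), Id1 and Id2 r = 0.777 (adjusted p = 0.00104, rho = 0.738), and Id2 and Id3 r = 0.732 (adjusted p = 0.00257, rho = 0.606). Leaving out the 2 farthest libraries left r = 0.655, 0.721 and 0.668 in the same order. Bmpr2 ran opposite to Id1 (r = -0.606, adjusted p = 0.0144, rho = -0.659) and to Id2 (r = -0.568, adjusted p = 0.0162, rho = -0.666), and without the 2 libraries r was -0.671 and -0.614. With values centred within each cross, Bmpr2 and Id1 had r = -0.653 (adjusted p = 0.00863), while Bmpr2 and Id2 had r = -0.459 and no longer passed (adjusted p = 0.0812). Permuting centred values made no allowance for the group means taken out, so p-values of centred values are too small. Before centring, Bmpr2 had r = -0.501 with Id3 (adjusted p = 0.07), r = -0.153 with Acvr1 and r = -0.293 with Smad1, none of which passed.

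**Figure D4:**
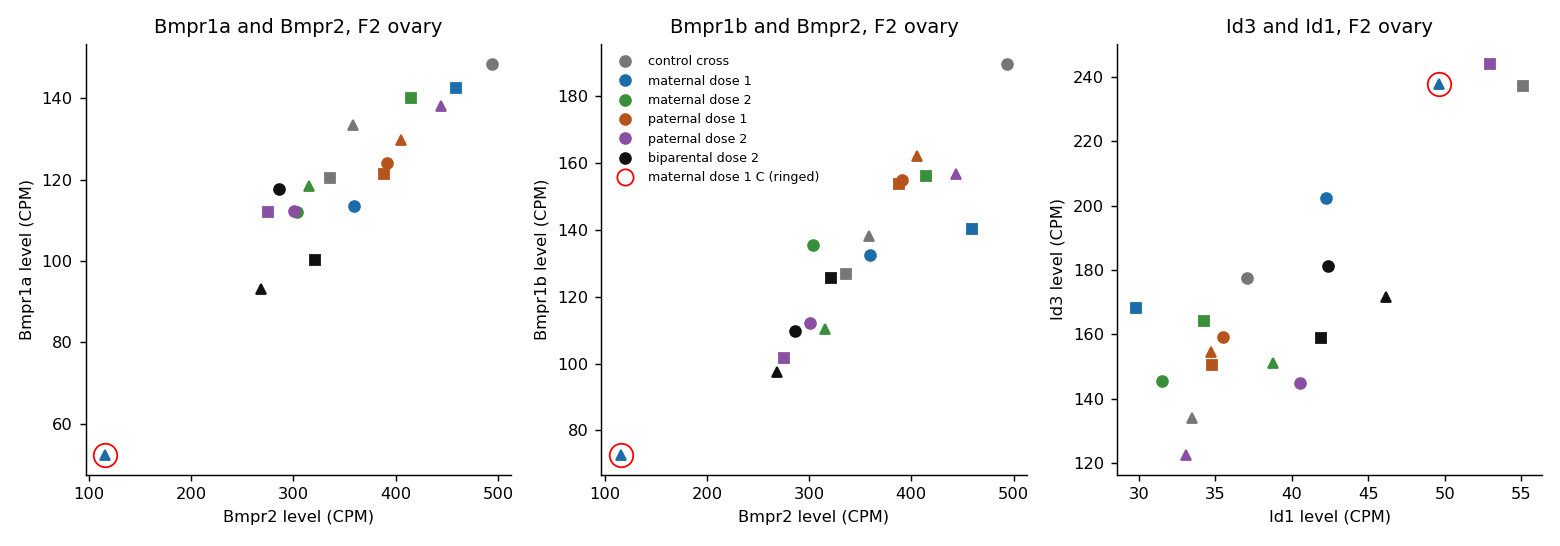
Levels in CPM of Bmpr1a against Bmpr2 (left), Bmpr1b against Bmpr2 (middle) and Id3 against Id1 (right) in the 18 F2 ovary libraries, coloured by cross (circles, library A; squares, B; triangles, C). The ringed library, maternal dose 1 C, is lowest for the 3 receptors (116, 52.2 and 72.6 CPM) and among the highest for Id1 and Id3. The libraries of paternal dose 1 lie closest together, and the spread within the other crosses is wider.

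Many genes shared this pattern, and gene length moved with it. Other genes that averaged 5 CPM or more in F2 ovary were ranked by r with Bmpr2, leaving out symbols of predicted genes and clones. Among these 11695 genes, Bmpr1a ranked 30 and Bmpr1b 289. Smad5 ranked 1987, Id2 9376 and Id1 9689, counted from the highest r. Many genes thus followed Bmpr2 more closely than Smad5 did, and many ran more strongly opposite than Id1 and Id2. The 5 highest were Mbnl2 (a splicing regulator, r = 0.977), Ubn2 (r = 0.976), Osbpl8 (r = 0.9754), Rps6ka3 (a ribosomal S6 kinase, r = 0.9747) and Pum2 (an RNA-binding repressor, r = 0.971), with r from 0.910 to 0.934 without maternal dose 1 C. Their exons span 7.26 to 21.4 kb, above the median of 4.08 kb. The median deviation of the 1682 longest genes ran from -0.235 in maternal dose 1 C to 0.243 in maternal dose 1 B, the libraries with 116 and 459 CPM of Bmpr2. On residuals from that deviation, an alternative added after the data were seen, Bmpr2 had r = 0.894 with Bmpr1a and 0.8 with Bmpr1b, and 0.512 and 0.747 without the 2 farthest libraries. The r with Smad5 became 0.124, with Id1 0.0042 and with Id2 -0.00234, and 4 of 22 pairs passed in place of 10 (Bmpr2 with Bmpr1a and with Bmpr1b, Id1 with Id3 and Id2 with Id3). The part of gene length in these correlations is otherwise not tested.

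In F2 testis, Bmpr2 was at 17.5 to 24.98 CPM in all 18 libraries. The control cross had 23.1, 20.4 and 22.1 CPM, maternal dose 1 had 19.9, 19.1 and 18.3 CPM, maternal dose 2 had 22.3, 17.8 and 17.5 CPM, and paternal dose 1 had 24.5, 20.2 and 22.2 CPM. Paternal dose 2 had 21.7, 22.5 and 18.7 CPM and biparental dose 2 had 20.4, 24.98 and 19.98 CPM. Maternal dose 1 lay wholly below the control cross, by -0.19 (SE 0.109) on the log2 scale, and below paternal dose 1, by -0.22 (SE 0.109), and neither passed the test. The mean order ran from paternal dose 1 (22.3 ± 2.13 CPM) to maternal dose 1 (19.1 ± 0.781 CPM), with no gap between neighbours above 0.65 times the larger SD.

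The 7 comparisons of F2 testis called 0 of 9 members with edgeR over 19379 genes, also at an unadjusted p under 0.05, and DESeq2 called 0. The shares of all genes called were 0.0103% for maternal dose 1, 0.372% for maternal dose 2, 0.201% for paternal dose 1, 0.00516% for paternal dose 2 and 0.0155% for biparental dose 2 against the control cross. They were 0.0413% for maternal against paternal dose 1 and 0.119% for dose 2. Groups without overlap were seen for 1 member in maternal dose 1 (11.8% of genes), 2 in paternal dose 1 (17.7%), 2 in biparental dose 2 (12.6%) and 2 in maternal against paternal dose 1 (16.3%). In paternal dose 1 the 2 were Bmpr1a, with 36.3, 29.5 and 32.5 CPM against 29.2, 26.9 and 29.0 CPM in the control cross, and Id3, with 2.13, 2.16 and 2.08 CPM against 2.77, 2.36 and 2.70 CPM. Across the 18 libraries, Bmpr2 and Bmpr1a had r = 0.575 (adjusted p = 0.0273; rho = 0.538) and Id1 and Id3 r = 0.536 (adjusted p = 0.0483; rho = 0.527), and without the 2 farthest libraries r was 0.460 and 0.466. On residuals from the long-gene deviation neither passed (r = 0.144 and 0.47). With values centred within each cross, Bmpr2 and Bmpr1a had r = 0.671 (adjusted p = 0.00625), and Id1 and Id3 had r = 0.468 and did not pass (adjusted p = 0.0812). Centred values of Bmpr2 had r = -0.647 with Id1 (adjusted p = 0.0097), r = -0.587 with Id3 (adjusted p = 0.0231) and r = 0.576 with Smad5 (adjusted p = 0.0257). None of these pairs passed before centring. The p-values of centred values are too small, as said for ovary, so no pass is read from them. The 5 genes most like Bmpr2 there, of 11299 picked by the same rule as in ovary, were Zfp397, Slf2, Kmt2c, Usp32 and Uggt2. Their r ran from 0.855 to 0.877. Bmpr1a ranked 562 of the 11299.

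In the 20 comparisons between doses or crosses, edgeR called 0 of the other pathway genes, of which 49 to 53 of 59 were tested. The number under an unadjusted p of 0.05 ran from 0 to 12. The 12, of 53 tested, were in F2 ovary, maternal against paternal dose 1, where 12.6% of all genes were. In F2 ovary biparental dose 2 against control cross it was 7 of 53, beside 9% of all genes. All-gene shares of the other comparisons are not given here, so nothing is read from their counts.

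The largest differences of the 9 genes were between the tissues. In the F2 control cross, 6 libraries were fitted together, and all 9 genes were called higher in ovary than in testis, in a comparison in which 87.8% of 19757 genes were called. Tissue, sex, age and count table cannot be told apart here. The other 20 comparisons are scaled within a tissue; this one has its own TMM scale. On that scale Bmpr2 averaged 336 CPM in ovary and 25.6 CPM in testis, a log2 difference of 3.71 (SE 0.166), or 13.1-fold (edgeR, adjusted p = 2.28e-08). Every ovary library lay above every testis library for each of the 9.

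Among the type I receptors, Bmpr1b differed most, by 7.60 (SE 0.303, adjusted p = 1.03e-08) on the log2 scale. It had 190, 127 and 138 CPM in the control cross ovaries on the F2 ovary scale, and 0.325, 0.488 and 0.900 CPM in the testes on the F2 testis scale. Over all 27 testis libraries it was at 0.170 to 0.900 CPM, from 8 counts upwards. Acvr1 differed by 2.04 (SE 0.143) and Bmpr1a by 1.78 (SE 0.109). The transducer Smad5 differed by 1.37 (SE 0.093) and Smad1 by 0.34 (SE 0.102, adjusted p = 0.0102). The Smad1 difference fell to 0.14 and did not pass with relative log expression (RLE) size factors or with DESeq2, scalings that lowered the median of all genes by 0.204, and it was 0.29 and did not pass without testis control cross C. The target genes differed by 5.66 (SE 0.236) for Id3, 4.16 (SE 0.236) for Id1 and 2.90 (SE 0.164) for Id2. The median of the 9 was 2.90 against -0.0629 over all genes.

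**Figure D5:**
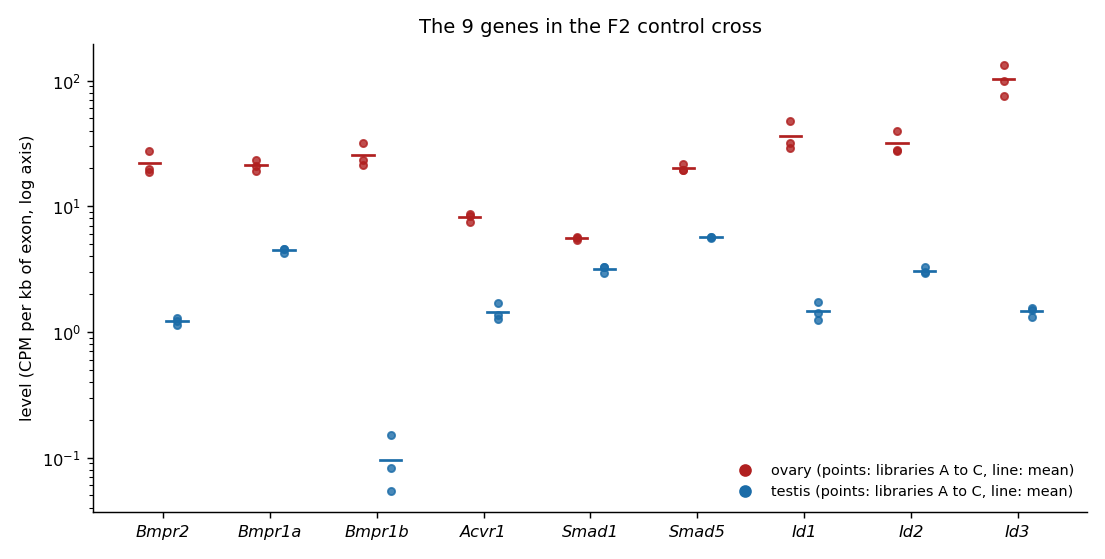
Level of each of the 9 genes per kb of exon (CPM per kb, log axis) in the 3 ovary and 3 testis libraries of the F2 control cross, each tissue on its own scale, with the mean as a line. As drawn, all ovary points lie above the testis points of the same gene, from Smad1 (5.57 and 3.19 CPM per kb) to Bmpr1b (25.4 and 0.0958 CPM per kb). Because the scales were set apart for each tissue, the size of a tissue difference cannot be read from this figure. The joint fit in the text gives those sizes.

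Per kb of exon, so that genes can be compared, Bmpr2, Bmpr1a, Bmpr1b and Smad5 were at similar levels in ovary. Their means were 22.0, 21.1, 25.4 and 20.2 CPM per kb, with SDs of 4.76, 2.21, 5.63 and 1.37 (n = 3), so their order is not set beyond the spread. Acvr1 (8.19 ± 0.574) and Smad1 (5.57 ± 0.135) were lower, and Id3 (102 ± 28.9) was higher. Id1 (36.1 ± 10.0) and Id2 (31.6 ± 6.75) had higher means, with a spread that reached that of Bmpr1b. In testis the order was different, with Smad5 (5.66 ± 0.0692 CPM per kb) and Bmpr1a (4.47 ± 0.206) above Smad1 (3.19 ± 0.195) and Id2 (3.06 ± 0.171). Id1, Id3, Acvr1 and Bmpr2 came next, with means of 1.46, 1.46, 1.44 and 1.22 CPM per kb, and Bmpr1b was lowest at 0.0958 ± 0.0497. The exon lengths came from GENCODE M21 on GRCm38, which may differ from the annotation behind the counts.

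The pathway genes around the 9 were tested in the same comparison, in which 87.8% of all 19757 genes were called. Of the 54 other pathway genes tested, 31 were higher in ovary and 14 lower. Their median log2 difference was 1.10, beside -0.0629 over all genes. Being called thus does not set these genes apart, here or in the list counts that follow. How all genes split into higher and lower is not given here. With RLE the numbers were 31 higher and 18 lower. Of 10 ligands, 7 were higher and 2 lower in ovary. Gdf9, an oocyte factor of the same family, differed by 7.75 (SE 0.327) and Bmp2 by 8.42 (SE 0.395), and Bmp3, Bmp4, Bmp6, Bmp7 and Bmp15 were also higher. Bmp8a and Bmp8b, which maintain male germ cells in mice, were lower in ovary, by -3.87 (SE 0.267) and -4.63 (SE 0.442). Of 12 further receptors, 8 were higher (Acvr2b, Acvrl1, Tgfbr1, Tgfbr2, Tgfbr3, Eng, Rgma and Rgmb) and 2 lower (Acvr2a and Acvr1b), or 8 and 3 with RLE. Among 12 antagonists, 8 were higher, Fst, Twsg1 and Nbl1 among them, with Fst at 8.39 (SE 0.277), and 2 were lower. Those lower were Fstl3 and Sostdc1. The testis libraries together held 2 counts of Bmp3, 1 of Bmp15 and 3 of Nog, and the ovary libraries 1 count of Sostdc1, so no fold is given for these. Grem1 had 0 counts in the 3 testis libraries, so it was at least 9.41 log2 units higher in ovary when set against a floor of 3 counts over the group.

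Of 13 further SMADs and regulators, 6 were higher in ovary (Smad2, Smad3, Smad4, Smad7, Ski and Skil) and 3 lower (Smurf1, Smurf2 and Ppm1a). Smad3, which carries activin signals, differed by 3.43 (SE 0.129). Ppm1a, a phosphatase of SMADs, differed by -2.23 (SE 0.0998), and Smurf1, a ubiquitin ligase that marks Smad1 and Smad5 for degradation, by -1.50 (SE 0.135). With RLE size factors 6 were higher and 6 lower. Of 10 other targets, 3 were higher (Smad7, Msx1 and Hey1) and 5 lower (Id4, Msx2, Atoh8, Zfp423 and Tob1), or 3 and 6 with RLE. Id4, the remaining Id gene, ran against Id1, Id2 and Id3, with a log2 difference of -2.51 (SE 0.133), and Atoh8 differed by -3.35 (SE 0.118).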

How the data were processed

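Raw gene counts, 1 table per tissue of 26264 genes by 27 libraries, were analysed as the authors deposited them, and 0 columns were left without a sample. Per the submitters' processing notes, tools used included featureCounts 2.0.3, TopHat2 2.1.1 and Bowtie2 2.4.5, with mm39 as the build. The counting annotation and strand setting are not stated in the labels.

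Each tissue and generation was fitted alone with edgeR 4.0.16 in R 4.3.3 (quasi-likelihood test, TMM, filterByExpr with a minimum count of 10, Benjamini-Hochberg adjusted p under 0.05 over all genes tested), with no replicate block. The standard error is the log2 change divided by the square root of F. The labels give no pairing of libraries by the letters A, B and C, and the main fits used none. The member genes and all gene lists were chosen with earlier results of these data known. Genes named are the members, pathway genes from fixed lists and the 5 genes most like Bmpr2 by r, except where said. DESeq2 1.42.0, RLE, no filter, a replicate block, other library sets and each library left out were alternatives. Correlations used log2 CPM with a prior count of 2. The scripts were tested on simulated data. The result of 1 pathway gene is not reported here.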

Additional observations from a re-analysis of the deposited data

How the results depend on the processing

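Bmpr2 in F1 ovary at dose 2, the value that chose the genes, ranged from -0.52 to -0.48 on the log2 scale over 15 alternatives, which is a description and no support for it. Over 426 pairs of a dose or cross comparison and an alternative, a member was called in 2. Both were Bmpr2 by DESeq2 in F1 ovary, for dose 2 against control and for dose 2 against dose 1. These libraries chose Bmpr2, so the 2 calls are no test of it and no result is read from them. Of the 22 correlations, 4 passed on residuals from the long-gene deviation, an alternative chosen after seeing the data, 10 passed without maternal dose 1 C, and 11 passed with values centred within each cross (7 in ovary and 4 in testis). Centring dropped Bmpr2 with Id2 in ovary and Id1 with Id3 in testis and added Bmpr2 with Smad5, Id1 and Id3 in testis. The centred p-values made no allowance for the group means taken out and are too small, so 11 may be too many. The Smad1 tissue difference was the only member call lost, with RLE, DESeq2 and without testis control cross C; the cause was not tested.

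The labels do not say whether the letters A, B and C pair libraries, and the correlations of deviations cannot settle it. Same-letter deviations had a median correlation of -0.223 in F1 ovary, 0.009 in F1 testis, 0.005 in F2 ovary and 0.041 in F2 testis. Between different letters it was 0.18, 0.0189, -0.0056 and -0.0181 in the same order. With the letter as a replicate block, Bmpr2 in F1 ovary at dose 2 was at -0.50. The block fits called 0 members in the 20 comparisons, those of F1 ovary being a description only, and 9 between tissues. The block moved the count over all genes in F2 testis from 72 to 297 for maternal dose 2, from 39 to 84 for paternal dose 1, from 8 to 27 for maternal against paternal dose 1 and from 23 to 280 for dose 2.

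Counts over all genes depended on the tool. DESeq2 called 26, 8 and 57 genes in F1 ovary (edgeR 0), 27, 5 and 23 in F1 testis (edgeR 4, 1 and 5), 2 to 49 in F2 ovary (edgeR 0 to 1) and 8 to 470 in F2 testis (edgeR 1 to 72). With all 27 libraries of a tissue fitted together, 0 genes were called in each F2 testis comparison. Leaving out F2 ovary maternal dose 1 A raised the count from 0 to 1360 genes against the control cross and from 1 to 1079 against paternal dose 1, with 0 members among them. With 3 libraries a group, a difference of a few times its SE could go uncalled. In the simulated data, 50 genes per set were given a 1.5-fold change. The share of them called was 34% in F1 ovary, 4% in F1 testis, 22% in F2 ovary and 58% in F2 testis.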
